A study of Mus musculus with 12 samples.

Results

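The endoplasmic reticulum (ER) chaperones and stress sensors described here are 10 mouse genes: Atf6, Xbp1, Hspa5, Hsp90b1, Dnajb9, Pdia3, Pdia4, Pdia6, Calr and Canx. They were chosen by name as core genes of ER protein folding and of the unfolded protein response, out of 55421 genes in the count table, and all 10 were among the 20015 genes with enough reads to be tested. RNA was sequenced from prefrontal cortex of male C57BL/6 wild-type mice aged 10 to 12 weeks, all of which had received 3 pairings of a tone with a 0.7 mA foot shock. The 12 libraries fall into 4 groups of 3: prelimbic cortex (PL) after dexmedetomidine (Dex), PL after saline, infralimbic cortex (IL) after Dex and IL after saline. Dex, a sedative agonist of alpha2 adrenoceptors, was given intraperitoneally at 40 µg/kg in 10 ml/kg, the saline mice received the same volume, and tissue was collected 2 hours after training. The PL and IL names come from the sample titles, since the dissection text speaks of PL tissue for every sample. The labels do not say how many mice stand behind a library, so the p-values below measure the spread between these samples, which may be technical. No untrained group was analysed here, so a response to the training itself was not tested.

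The ER folds secreted and membrane proteins. BiP, the product of Hspa5, holds unfolded chains and also sits on the stress sensors; when unfolded chains accumulate, BiP is drawn off, ATF6 travels to the Golgi and is cut into a transcription factor, IRE1 splices Xbp1 mRNA into its active form, and PERK slows translation. ATF6 and spliced XBP1 then raise transcription of chaperones, disulfide isomerases and degradation factors, many of them through an element in the promoter called the ER stress response element (ERSE). Gene counts sum all transcript forms, so the splicing of Xbp1 and the cutting of ATF6 are not seen in them.

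Promoter stretches that hold this element, exact or nearly so, are printed here because several of the 10 genes share it. The ERSE consists of CCAAT, 9 bases of any kind, and CCACG, and was searched on both strands of windows reaching 250 bases upstream and 50 bases downstream of each start site (RefSeq, GRCm38.p6). A window was at hand for 9 of the 10 genes, all but Atf6. The exact element stood in 5 of these 9 windows (Hspa5, Hsp90b1, Pdia6, Calr and Canx), against 0.119% of 32851 windows genome-wide, and Hsp90b1 held a pair of exact copies. The 10 genes were chosen as genes of this response, so the contrast is a description and not a test. With 1 mismatch allowed in its CCACG part, found in 0.998% of all windows, Pdia3 and Pdia4 also had a match, and Hsp90b1 a further one. Capitals mark each match, exact or with 1 mismatch; each sequence runs 5′ to 3′ on the strand of its gene, and a match on the opposite strand therefore ends in ATTGG.
Hspa5, chr2:34772015-34772053, plus strand: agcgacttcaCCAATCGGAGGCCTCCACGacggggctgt
Hsp90b1, chr10:86705523-86705666, minus strand: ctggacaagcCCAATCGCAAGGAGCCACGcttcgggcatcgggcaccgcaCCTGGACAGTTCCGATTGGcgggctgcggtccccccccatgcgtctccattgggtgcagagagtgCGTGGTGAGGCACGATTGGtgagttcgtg
Pdia3, chr2:121413863-121413901, plus strand: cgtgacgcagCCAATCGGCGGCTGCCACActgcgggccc
Pdia4, chr6:47813592-47813630, minus strand: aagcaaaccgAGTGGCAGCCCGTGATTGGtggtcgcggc
Pdia6, chr12:17266481-17266519, plus strand: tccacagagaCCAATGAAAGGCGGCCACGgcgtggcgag
Calr, chr8:84847065-84847103, minus strand: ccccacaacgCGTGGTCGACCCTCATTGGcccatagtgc
Canx, chr11:50325790-50325828, minus strand: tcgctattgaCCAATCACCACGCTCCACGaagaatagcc

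Neither Dnajb9 nor Xbp1 had an ERSE within its window, with or without the mismatch. ERSE-II (ATTGG, 1 base, CCACG; 0.0365% of windows), the XBP1-type core TGACGTGG (0.676%) and the ATF4 element (TGATG, 1 base, AA; 3.97%) were found in none of the 9 windows. The shorter TGACGT, which lies inside that core and occurs in 7.51% of windows, was found for Hspa5 and Canx. CCAAT alone, part of every ERSE, was in 37.4% of windows. A match is a run of letters and not a bound site, and a missing match says only that these letters are not in this window.

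Library depth was 6853832 to 7912150 assigned reads for PL Dex, 6867249 to 8847876 for PL saline, 5419187 to 10874464 for IL Dex and 10603069 to 16530596 for IL saline, and each of the 10 genes had at least 183 reads in every library. The first principal component of log2 expression separated the regions, at 17.9 to 48.8 for PL libraries and -38.4 to -29.3 for IL libraries. Within PL it also split the libraries, with PL Dex 1, PL Dex 2 and PL saline 1 at 17.9 to 22.5 and PL Dex 3, PL saline 2 and PL saline 3 at 46.9 to 48.8. PL Dex 3 thus lay apart from the other PL Dex libraries, and fits of the 10 genes that rest on it are given with and without it.

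Levels are CPM, the usual per-library scaling of read counts to a common depth, here with trimmed mean of M-values (TMM) factors, and between genes they are compared per kilobase of exon. In IL saline tissue the lectin chaperones stood highest, with Calr at 95.3 ± 7.99 and Canx at 79.8 ± 2.34 CPM per kb (SD, n = 3 here and below). Hspa5 followed at 54.0 ± 1.70, Hsp90b1 at 45.6 ± 1.25 and Pdia3 at 35.7 ± 1.79 CPM per kb, each apart from its neighbour by more than the SDs. Xbp1 at 20.2 ± 1.57, Pdia6 at 19.1 ± 1.76 and Pdia4 at 17.7 ± 1.28 CPM per kb came next and did not differ from one another, in that order, beyond their spread. Atf6 at 13.5 ± 0.774 and Dnajb9 at 11.2 ± 0.381 CPM per kb were lowest. The order of the leading pair turned in PL saline tissue, where Canx averaged 110.5 ± 5.37 and Calr 95.3 ± 7.44 CPM per kb. In PL Dex tissue Calr averaged 108.6 ± 3.79 and Canx 96.4 ± 20.9 CPM per kb, a difference within the spread of Canx. In IL Dex tissue the order of the leading pair was as in IL saline, with Calr at 103.5 ± 4.2 and Canx at 80.0 ± 2.71 CPM per kb.

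**Figure D1:**
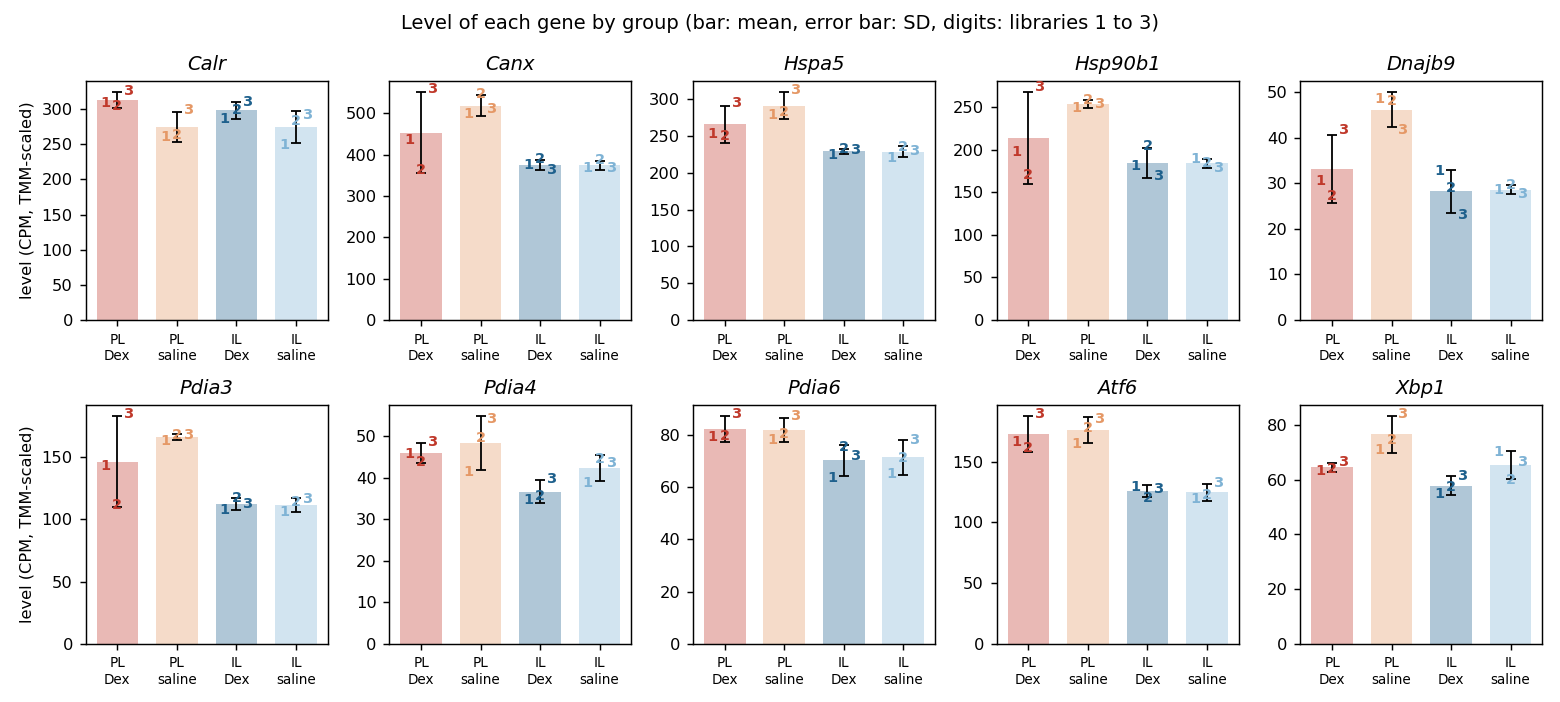
TMM-scaled CPM of each of the 10 genes (vertical axes from 0) in PL Dex, PL saline, IL Dex and IL saline libraries; bars are means, error bars SDs (n = 3) and digits the library numbers. PL saline libraries lie above IL saline libraries for 8 of 10 genes, while PL Dex 3 lies above the other PL Dex libraries for all 10, for Canx at 558 against 436 and 364 CPM.

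The region comparison in saline mice gave the clearest differences. In PL, 6 of the 10 genes were called higher than in IL: Dnajb9, Pdia3, Atf6, Canx, Hsp90b1 and Hspa5, by 1.27- to 1.61-fold. None was called lower. Among all genes tested, 9.97% were called higher and 8.7% lower (edgeR quasi-likelihood test, Benjamini-Hochberg adjusted p under 0.05). The median log2 difference of the 10 genes was 0.40, beside -0.025 over all genes tested.

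Atf6, on the minus strand of chromosome 1 (170704674 to 170867771, GRCm38), encodes the sensor that is cleaved in the Golgi. It had 165, 178 and 186 CPM in PL saline libraries and 119, 123 and 133 CPM in IL saline libraries. Every PL value exceeded every IL value, and the log2 difference was 0.50 ± 0.097 (SE; adjusted p = 0.00164). Xbp1, which encodes the transcription factor activated by IRE1 (chromosome 11, 5520659 to 5525893, plus strand), had 71.1, 74.7 and 84.1 CPM in PL saline libraries and 70.1, 59.98 and 66.4 CPM in IL saline libraries. Its groups did not overlap, by a gap of about 1 CPM, and the log2 difference of 0.23 ± 0.11 was not called (adjusted p = 0.139).

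Among the chaperones, Hspa5 (BiP; chromosome 2, 34771970 to 34777547, plus strand) had 279, 282 and 312 CPM in PL saline libraries and 221, 235 and 230 CPM in IL saline libraries. PL was higher throughout, with a log2 difference of 0.35 ± 0.093 (adjusted p = 0.0132). Hsp90b1 encodes GRP94, the HSP90 of the ER (chromosome 10, 86690209 to 86705509, minus strand). Its CPM were 248, 258 and 253 in PL saline libraries and 189, 184 and 179 in IL saline libraries, a log2 difference of 0.46 ± 0.13 (adjusted p = 0.0167). Dnajb9 encodes ERdj4, a J-domain partner of BiP (chromosome 12, 44205559 to 44210326, minus strand). It had 48.6, 48.0 and 41.7 CPM in PL saline libraries and 28.5, 29.6 and 27.7 CPM in IL saline libraries. Its groups were far apart, and its log2 difference of 0.69 ± 0.15 was the largest of the 10 (adjusted p = 0.00392).

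Of the protein disulfide isomerases, which form and rearrange disulfide bonds, Pdia3 was called and Pdia4 and Pdia6 were not. Pdia3 (ERp57, which works with the lectin chaperones; chromosome 2, 121413775 to 121438687, plus strand) had 163, 168 and 168 CPM in PL saline libraries and 106, 114 and 116 CPM in IL saline libraries. The groups were widely separated, with a log2 difference of 0.57 ± 0.13 (adjusted p = 0.00462). Pdia4 (chromosome 6, 47796141 to 47813430, minus strand) averaged 48.4 ± 6.46 CPM in PL saline and 42.4 ± 3.07 CPM in IL saline tissue, with overlapping groups and a log2 difference of 0.19 (95% interval -0.059 to 0.45). Pdia6 (chromosome 12, 17266545 to 17284770, plus strand) averaged 82.1 ± 4.66 CPM in PL saline and 71.5 ± 6.57 CPM in IL saline tissue. Its groups just failed to overlap, and its log2 difference was 0.20 (95% interval -0.025 to 0.42).

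The lectin chaperones, which bind sugar chains on newly made glycoproteins, parted. Membrane-bound Canx (calnexin; chromosome 11, 50293961 to 50325673, minus strand) had 498, 547 and 511 CPM in PL saline libraries and 368, 387 and 368 CPM in IL saline libraries. PL was higher in every pairing of libraries, with a log2 difference of 0.47 ± 0.12 (adjusted p = 0.00816). Its soluble relative Calr (calreticulin; chromosome 8, 84841850 to 84846934, minus strand) had 261, 264 and 299 CPM in PL saline libraries and 248, 284 and 292 CPM in IL saline libraries. The groups lay on top of each other, with a log2 difference of -0.00014 (95% interval -0.20 to 0.20). In all, the groups did not overlap, with PL higher, for 8 of the 10 genes, all but Pdia4 and Calr, where 20.1% of all genes tested had PL higher without overlap and 20.2% had PL lower. Of the 5 genes with an exact ERSE printed above, Hspa5, Hsp90b1 and Canx were called and Pdia6 and Calr were not, while Dnajb9, with no match, had the largest difference.

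**Figure D2:**
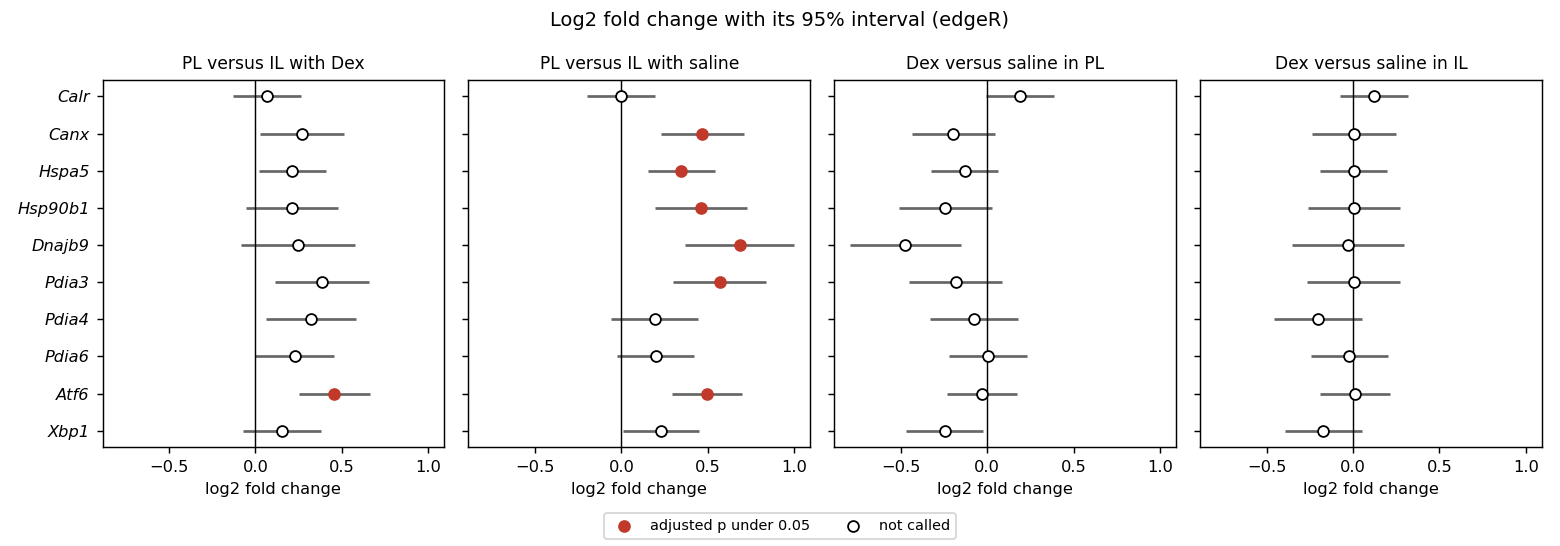
Log2 fold change (horizontal axes) of each gene in the 4 pairwise comparisons, with 95% intervals; filled red points have an adjusted p under 0.05 over all genes tested. Between regions 6 genes are called with saline and 1 with Dex, and no gene is called between Dex and saline in either region.

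The call of Hspa5 was lost without PL saline 3 (adjusted p = 0.0592) or IL saline 1 (0.0635), and that of Hsp90b1 without PL saline 2 (0.062), IL saline 2 (0.0568) or IL saline 3 (0.0587); leaving out any 1 library left 5 or 6 calls. Base composition moved with this comparison: across 19270 genes, the log2 difference between PL and IL with saline had a Spearman correlation of -0.433 with GC content. Transcripts of the 10 genes have 41.8% (Dnajb9) to 51.7% (Xbp1) GC. Genes within 1% GC of Dnajb9 had a median log2 difference of 0.25, those near Canx 0.22, those near Hsp90b1 0.21, those near Pdia3 0.067 and those near Xbp1 -0.090. After a correction for GC in each library, 5 genes were called, beside 1551 higher and 1162 lower over all genes. Atf6, Hspa5, Pdia3 and Dnajb9 kept their calls, Canx (log2 0.26, adjusted p = 0.0724) and Hsp90b1 (0.26, adjusted p = 0.0985) lost theirs, and Xbp1 gained one (0.32, adjusted p = 0.0262). Dnajb9 moved to 0.45 on the log2 scale, and so by over 1.5 times.

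**Figure D3:**
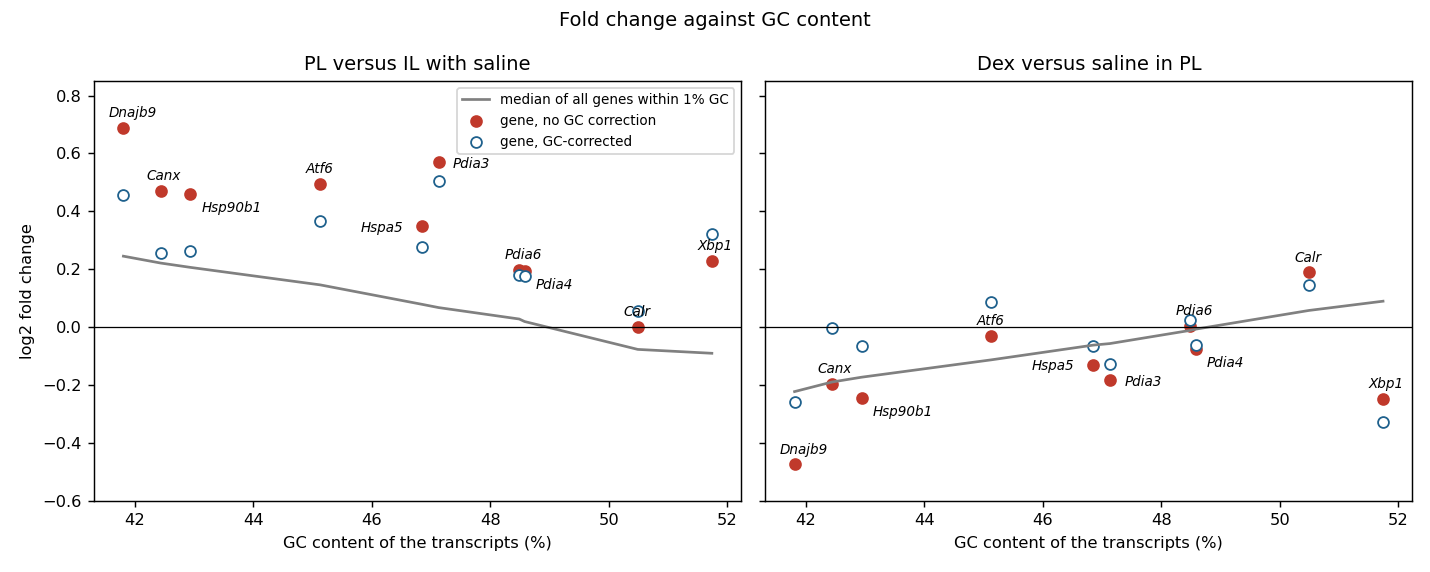
Log2 fold change (vertical axes) against GC content of the transcripts (%) for the 10 genes, for PL versus IL with saline (left) and Dex versus saline in PL (right); the grey line joins the medians of all genes within 1% GC of each gene, and open points are GC-corrected. In the left panel Dnajb9, Atf6 and Pdia3 stand above the line (0.69, 0.50 and 0.57 against 0.25, 0.15 and 0.067), and in the right panel Canx lies near it (-0.20 against -0.19) while Xbp1 lies below it (-0.25 against 0.089).

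With Dex, 1 of the 10 genes was called between the regions, and all 10 fitted log2 differences were above 0. Atf6 had 167, 162 and 190 CPM in PL Dex libraries and 129, 120 and 128 CPM in IL Dex libraries. PL was again higher throughout, by 0.46 ± 0.098 on the log2 scale (adjusted p = 0.00553), and Atf6 was called under each of the 14 alternatives tried here and each of the 13 tried with saline. Among all genes tested, 3.8% were called higher and 3.54% lower. The median log2 difference of the 10 genes was 0.24, beside -0.0097 over all genes. Without PL Dex 3 that median was 0.14, Atf6 was the 1 gene called, and Hsp90b1 (0.0024), Dnajb9 (0.056), Canx (0.099) and Pdia3 (0.19) lay nearer to 0 than with it. The groups did not overlap for 5 genes, with PL higher (Atf6, Hspa5, Pdia4, Pdia6 and Xbp1), where 10.8% of all genes had PL higher and 10.8% had PL lower without overlap. Pdia3 had 143, 112 and 185 CPM in PL Dex libraries and 107, 117 and 112 CPM in IL Dex libraries. PL Dex 2 lay inside the IL range and PL Dex 3 far above it, and the log2 difference of 0.38 ± 0.13 was not called (adjusted p = 0.0827). Without PL Dex 2, 3 genes were called, Atf6, Pdia3 and Canx. With the GC correction alone 1 was called, beside 1108 higher and 793 lower over all genes. With the GC correction and the sample number as a block, 4 were called: Atf6, Pdia3 (adjusted p = 0.0354), Pdia4 (0.0466) and Canx (0.0489).

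Between Dex and saline in PL, none of the 10 genes passed the threshold. This comparison and the region comparison with saline share the PL saline libraries. edgeR called 0 of 10 and DESeq2 called 0, and over all genes tested edgeR called 0% higher and 0.02% lower. An unadjusted p under 0.05 was found for 2 of the 10 genes, beside 2784 of the 20015 genes tested. The median log2 change was -0.16, beside -0.0025 over all genes, and 8 of 10 values were negative. Dnajb9 had 30.5, 27.3 and 41.6 CPM in PL Dex libraries and 48.6, 48.0 and 41.7 CPM in PL saline libraries. The groups were apart by less than 0.1 CPM at their nearest libraries, PL Dex 3 and PL saline 3, and the log2 change was -0.47 ± 0.15 (unadjusted p = 0.006, adjusted p = 0.224). Xbp1 had 63.4, 63.9 and 66.4 CPM in PL Dex libraries and 71.1, 74.7 and 84.1 CPM in PL saline libraries. Each Dex value was below each saline value, with a log2 change of -0.25 ± 0.11 (unadjusted p = 0.0317, adjusted p = 0.316). Calr went the other way, with 309, 305 and 325 CPM in PL Dex libraries and 261, 264 and 299 CPM in PL saline libraries. Its Dex values all exceeded its saline values, by 0.19 ± 0.095 on the log2 scale (adjusted p = 0.377). Groups without overlap were thus found for 2 genes with Dex lower (6.82% of all genes tested) and 1 with Dex higher (7.57%).

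Hsp90b1, Canx and Pdia3 had wide spreads among PL Dex libraries. Hsp90b1 had 197, 170 and 273 CPM in PL Dex libraries and 248, 258 and 253 CPM in PL saline libraries. Canx had 436, 364 and 558 CPM in PL Dex libraries and 498, 547 and 511 CPM in PL saline libraries. For both, as for Pdia3, PL Dex 1 and 2 lay below every saline library and PL Dex 3 above every one. Without PL Dex 3, 4 genes were called lower with Dex: Dnajb9 (log2 -0.67, adjusted p = 0.0124), Hsp90b1 (-0.45, 0.0115), Pdia3 (-0.38, 0.0325) and Canx (-0.37, 0.0204). In that fit 591 genes were called higher and 893 lower in all, and with the GC correction added none of the 10 was called. Across genes, the log2 change with Dex in PL had a Spearman correlation of 0.554 with GC content. With the correction and all libraries, Canx stood at -0.0020, Dnajb9 at -0.26 and Xbp1 at -0.33 on the log2 scale (unadjusted p for Xbp1 = 0.00266, adjusted p = 0.791), and none was called. The 4 remaining genes were close in Dex and saline tissue: Hspa5 averaged 266 ± 25.2 CPM with Dex and 291 ± 18.3 CPM with saline, Atf6 173 ± 15.0 and 176 ± 10.4 CPM, and Pdia6 82.4 ± 4.93 and 82.1 ± 4.66 CPM. Pdia4 averaged 46.0 ± 2.43 CPM with Dex and 48.4 ± 6.46 CPM with saline. The 95% intervals of the log2 change were -0.32 to 0.064 for Hspa5, -0.23 to 0.17 for Atf6, -0.22 to 0.23 for Pdia6 and -0.33 to 0.18 for Pdia4.

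In IL, edgeR called 0 of the 10 genes between Dex and saline, and DESeq2 called 0. Over all genes, edgeR called 0% higher and 0% lower. None of the 10 had an unadjusted p under 0.05, beside 213 of the 20015 genes tested. No gene of the 10 had groups without overlap, where 3.8% of all genes had Dex higher and 3.98% Dex lower. The widest change was that of Pdia4, with 34.7, 35.6 and 39.8 CPM in IL Dex libraries and 38.9, 44.6 and 43.6 CPM in IL saline libraries. IL Dex 3 reached into the saline range, and the log2 change was -0.20 (95% interval -0.46 to 0.053). Xbp1 averaged 57.9 ± 3.36 CPM in IL Dex and 65.5 ± 5.11 CPM in IL saline tissue (log2 -0.17, 95% interval -0.40 to 0.048), and Calr 298 ± 12.1 and 274 ± 23.0 CPM (0.12, -0.077 to 0.32). The other 7 had log2 changes between -0.032 (Dnajb9) and 0.0076 (Atf6), with intervals reaching 0.36 below 0 at the widest.

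The Dex effect was then compared between regions with an interaction term. None of the 10 genes was called by edgeR or DESeq2, and over all genes 0% were called higher and 0% lower. None of the 10 had an unadjusted p under 0.05, beside 1347 of the 20015 genes tested. The smallest p belonged to Dnajb9, whose Dex effect was lower in PL than in IL by 0.44 ± 0.22 on the log2 scale (unadjusted p = 0.0571, adjusted p = 0.716). Without PL Dex 3, 38 genes were called higher and 106 lower over the whole table, and still none of the 10. In that fit Hsp90b1 stood at -0.46 (adjusted p = 0.0807), Dnajb9 at -0.63 (0.107), Canx at -0.37 (0.119) and Pdia3 at -0.38 (0.164).

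**Figure D4:**
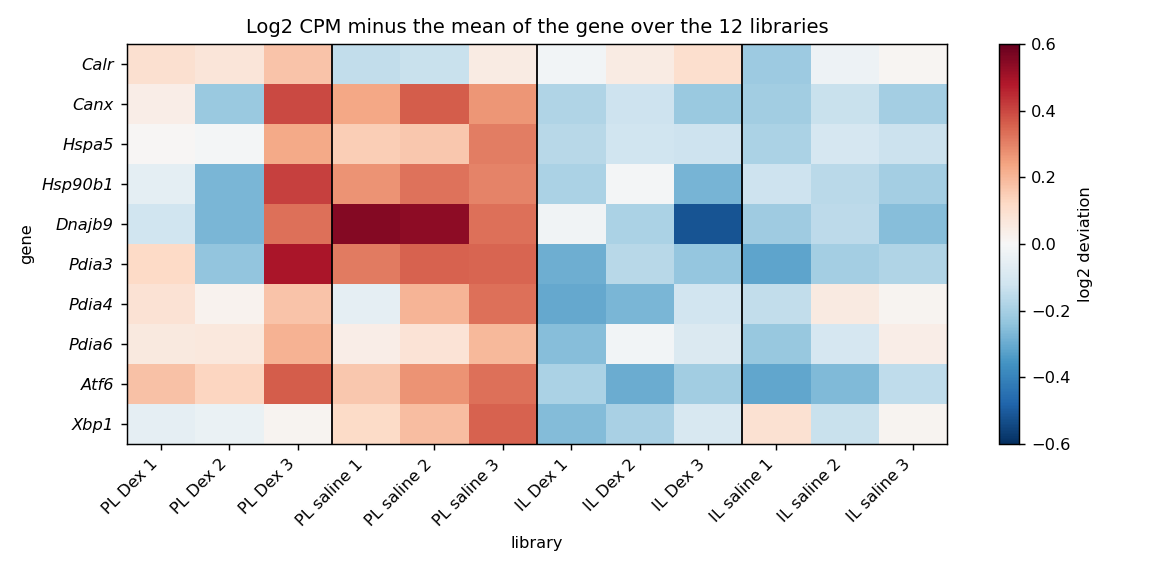
Log2 CPM of each gene (rows) in each of the 12 libraries (columns) as the deviation from its mean over all libraries, red above and blue below. PL saline libraries and PL Dex 3 are mostly red, IL libraries mostly blue, and PL Dex 2 is blue for Hsp90b1, Canx, Pdia3 and Dnajb9 within the PL group.

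Across libraries most pairs of the 10 genes moved in the same direction. As deviations from the group means, 41 of the 45 pairs had a correlation above 0 over the 12 libraries, with a median of 0.498. Pdia3 with Canx (0.954), Hsp90b1 with Canx (0.945) and Hsp90b1 with Pdia3 (0.898) were the tightest pairs. Dnajb9 with Xbp1 (-0.361) had the lowest value, below 0. Canx, Hsp90b1 and Pdia3 had SDs of 98.0, 53.5 and 36.7 CPM in PL Dex, wider than in any other group. PL Dex 3 therefore weighs heavily in their pairs. The points share libraries, depth and base composition, and no values for pairs of other genes are given, so these values are descriptions. The genes whose deviations were most like the mean of the 10 were Rps15a (a ribosomal protein; r = 0.979), Id2 (an inhibitor of DNA binding; 0.978), Cox7b (respiratory complex IV; 0.974), Atp5f1 (ATP synthase; 0.974) and Uqcrh (respiratory complex III; 0.969). These came from 9839 candidates with a mean of at least 10 CPM, of which 1.55% exceeded 0.9 and whose median was 0.165.

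Other genes of the ER pathways were read in the same fit. There, 9.97% of all genes were called higher and 8.7% lower between PL and IL with saline. With the GC correction, 1551 of the 20015 genes tested were called higher and 1162 lower. Several of the shares below lie near these. Between PL and IL with saline, 9 of 32 other ER folding factors were called higher and none lower, with a median log2 difference of 0.088. Tmx3, an ER thioredoxin-like oxidoreductase (0.68), Ero1l, which reoxidises disulfide isomerases (0.48), Erp44, which retains that oxidase (0.52), and the HSP70 relative Hspa13 (0.48) had the smallest p. Only Tmx3 of these 4 kept its call after the GC correction, which left 2 of 32, and leaving out any 1 library left 4 to 7. Of 25 ER-associated degradation genes 4 were called higher: Ube2j1, an E2 enzyme (0.63), Sel1l, the adaptor of the HRD1 ligase (0.36), Edem3, a mannosidase-like factor (0.32), and Ubxn4, which recruits VCP (0.31). The GC correction left 2, Ube2j1 and Sel1l. Of 25 translocon and glycosylation genes 5 were called higher, among them the translocon components Sec62 (0.68) and Sec63 (0.31), the signal peptidase subunit Spcs3 (0.63) and the oligosaccharyltransferase subunit Stt3b (0.31). The correction left 3, Sec62, Spcs3 and Stt3b.

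Of 12 other stress sensors and regulators, 1 was called higher, the site-2 protease Mbtps2 (0.35), and 2 lower, the ATF6 relative Atf6b (-0.54) and the site-1 protease Mbtps1 (-0.42); both proteases cleave ATF6. Mbtps2 and Atf6b lost their calls with the GC correction. Among 27 tested targets of the integrated stress response, the transcription factor Cebpg (0.46) and the asparaginyl-tRNA synthetase Nars (0.47) were higher and the serine synthesis enzyme Phgdh (-0.84) lower. The other 24, Atf4 and Ddit3 among them, were not called. With the GC correction 6 targets were called higher and 1 lower, beside 1551 and 1162 over all genes. Trib3, Gdf15 and Fgf21 had too few reads to be tested. Calcium-handling genes split, with 3 of 16 higher (Itpr1, 0.32; Ryr2, 0.42; Stim2, 0.49) and 3 lower, among them Ryr1 (-0.93); these 4 genes encode calcium release channels of the ER and, for Stim2, a sensor of its calcium. Cytosolic and mitochondrial heat shock genes also moved, 7 of 18 higher and 3 lower, with Hsp90aa1 (0.70), Chordc1 (0.67) and Hspd1 (0.57) higher and the regulator Hsf1 (-0.75) lower, so chaperones called between the regions included some outside the ER. The remaining lower calls were Hspa1a (-1.5) and Hspa1b (-0.97). Their levels were low, at means of 1.35 and 4.09 CPM in PL saline and 3.74 and 7.87 CPM in IL saline tissue. Of the genes named in these lists, Ubxn4, Sec63, Stt3b and Mbtps2 were called in none of the 6 fits without a single library, and Edem3 in 1. Mbtps1, Atf6b, Cebpg, Itpr1, Ryr2, Stim2, Hspa1a and Hspa1b lost their calls in at least 1 of these 6 fits.

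With Dex, calls between the regions in these lists were fewer. No other folding factor, sensor or translocon gene was called. Sel1l (0.34) and Ube2j1 (0.42), Nars (0.42) and the seryl-tRNA synthetase Sars (0.38), Ryr2 (0.59) and Hsp90aa1 (0.43) were called higher in PL and Phgdh (-0.51) lower. Each of these calls but that of Ryr2 was lost in some fit without 1 library. The adjusted p of the edgeR test without any 1 library ran to 0.188 for Hsp90aa1. Between Dex and saline no gene of these 7 lists was called in either region in the edgeR fit of all 12 libraries. Without PL Dex 3, 1 of the 18 heat shock genes was called higher and 5 lower with Dex in PL. Over all genes 591 were called higher and 893 lower in that fit. With the GC correction added none of the 18 was called. With all libraries, 1 of them was called lower by DESeq2 and 1 without the low-count filter.

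**Figure D5:**
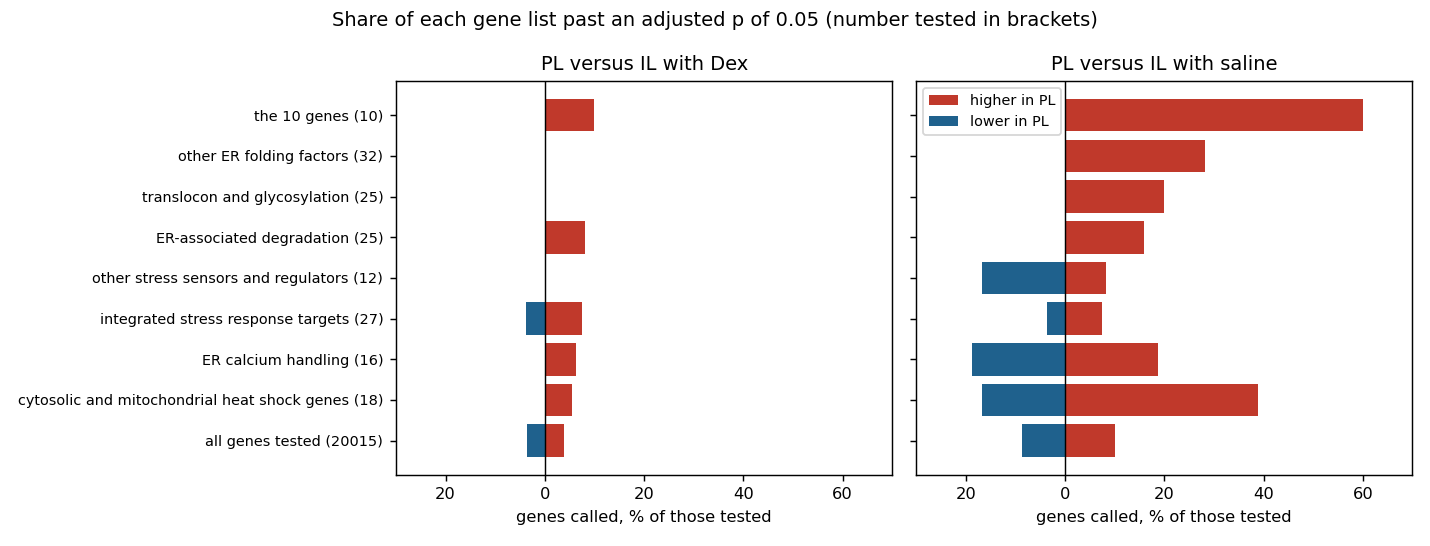
Share of the genes tested in each list (%) called higher (red, to the right) or lower (blue, to the left) in PL than in IL, with Dex (left panel) and with saline (right panel); the bottom row gives all 20015 genes. With saline, 6 of the 10 ER genes and 9 of 32 other ER folding factors are called higher, against 9.97% of all genes, and with Dex 1 of 10 and 0 of 32, against 3.8%.

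Cell type markers moved with the region difference. The summed CPM of 8 neuron markers was 5146 to 6740 in PL Dex, 5973 to 6351 in PL saline, 4225 to 4671 in IL Dex and 4023 to 4436 in IL saline libraries, so the sums in PL and IL did not overlap. The sum is carried by the most abundant genes: with saline 4 of the 8 markers were above 0 and 4 below, with a median log2 difference of 0.20. With saline Snap25 (log2 0.88), Syt1 (0.82) and Nefl (0.70) were higher in PL and Gad1, of inhibitory neurons, lower (-0.62), and with Dex 3 markers were called higher and 2 lower. Among the PL Dex libraries the sum was highest and lowest in the same libraries as the ER genes: 5768, 5146 and 6740 CPM in libraries 1, 2 and 3, beside summed levels of the 10 genes of 1723, 1576 and 2070 CPM. The 7 astrocyte markers summed to 5162 to 6970 CPM in PL Dex, 6397 to 7148 in PL saline, 5611 to 6033 in IL Dex and 5404 to 5804 in IL saline libraries, with Slc1a2 (0.34) higher and Gfap (-1.0) lower in PL with saline. The higher sums in PL saline run against most of that list, of which 5 of 7 markers were below 0 with saline (median log2 difference -0.11) and 6 of 7 with Dex. Summed CPM of 5 striatal markers was 93.5 to 183 in PL Dex and 85.5 to 290 in PL saline, against 451 to 756 in IL Dex and 450 to 603 in IL saline libraries, with Drd1, Drd2 and Ppp1r1b lower in PL with saline. Summed CPM of 3 ependymal markers was 1.63 to 2.45 in PL Dex and 1.05 to 2.90 in PL saline, against 5.35 to 13.1 in IL Dex and 9.70 to 13.7 in IL saline libraries, with Foxj1, Tmem212 and Ccdc153 all lower in PL with saline. The calls of Gad1, Slc1a2, Drd1, Drd2, Foxj1, Cspg4 and Pdgfrb were each lost in at least 1 fit without a single library. With saline, Drd1 and Drd2 were each called in 1 of the 6 such fits. The GC correction removed the saline calls of Gad1 (adjusted p = 0.051), Foxj1 (0.058), Drd2 (0.064), Pdgfrb (0.092) and Cspg4 (0.094). Slc1a2 and Drd1 kept theirs.

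The 4 olfactory or deep-layer neighbour markers summed to 108 to 192 CPM in PL Dex and 156 to 173 in PL saline, against 90.2 to 110 in IL Dex and 76.9 to 99.1 in IL saline libraries, with Tbr1 higher in PL (0.96 with saline). The sum is carried by Tbr1, at a mean of 160.6 CPM in PL saline beside 1.15 for Doc2g and 0.81 for Trp73. Doc2g (-1.0) and Trp73 (-0.29) were below 0 with saline and not called, and Eomes had too few reads to be tested. Oligodendrocyte markers ran from 1597 to 4173 CPM in PL Dex, 2139 to 2949 in PL saline, 2615 to 3086 in IL Dex and 2536 to 3262 in IL saline libraries. Oligodendrocyte precursor markers summed to 129 to 195 CPM in PL Dex and 125.6 to 144 in PL saline, against 163 to 196 in IL Dex and 155 to 179 in IL saline libraries. The saline groups did not overlap; all 4 precursor markers were below 0 in PL with saline, and Cspg4 was called lower (-0.65). Blood markers summed to 49.1 to 62.4 CPM in PL Dex and 51.8 to 107 in PL saline, against 88.9 to 150.5 in IL Dex and 77.9 to 81.7 in IL saline libraries. The Dex groups did not overlap, and all 5 blood markers were below 0 in PL with Dex, with none called. Choroid plexus markers summed to 5.31 to 8.998 CPM in PL Dex and 4.71 to 6.91 in PL saline, against 5.70 to 12.2 in IL Dex and 7.11 to 10.9 in IL saline libraries, apart with saline and overlapping with Dex. PL and IL overlapped under both treatments for the sums of microglial (142 to 168 CPM over all libraries), endothelial (82.3 to 115.5), mural and fibroblast (47.1 to 81.2) and plasma and B cell markers (0.234 to 1.44); of these, Pdgfrb, a mural cell receptor, was called lower in PL with saline (-0.55). No marker in any list was at 0 in all libraries. The part of cell makeup in the differences of the ER genes was not tested, and in bulk tissue fewer cells of a type and less RNA per cell cannot be told apart.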

How the data were processed

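The authors deposited raw read counts per gene, made with featureCounts 2.0.1 and an Ensembl release 98 annotation of GRCm38 per the file headers, with no strand option; 12 further count columns match no labelled sample and were not used. The submitters' processing notes name bcl2fastq, Trim Galore, HISAT2, SAMtools 1.8 and the build mm39, which differs from the header. Hsp90b1, Pdia3, Pdia6, Pdia4 and Dnajb9 share 14 to 415 exon bases with a neighbouring gene, and reads there cannot be assigned to either with certainty. Counts were fitted in edgeR 4.0.16 (R 4.3.3, limma 3.58.1; TMM, filterByExpr, robust quasi-likelihood test, 1 mean for each of 4 groups over 12 libraries), with Benjamini-Hochberg adjustment over 20015 genes; the biological coefficient of variation, common to all genes, came to 0.143. The 10 genes, the pathway and marker lists and the tests were chosen with earlier results of these data known. Besides the 10 genes, the text names at most 4 genes of each list past the threshold, those with the smallest p, and the 5 genes with deviations most like theirs. Hspa1a and Hspa1b are named in addition.

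Alternatives were RLE size factors, DESeq2 1.42.0, no filter on low counts, only the groups compared, the sample number as a block, a GC correction (lowess of log2 CPM on GC content in each library, span 0.3, added to the offsets), both together, and each library left out in turn; the GC correction without PL Dex 3 was added after seeing the data. The labels give each sample number a batch, so the numbers pair samples by label: deviations of same-numbered samples correlated at 0.299 to 0.347 between IL Dex and IL saline, at 0.0141 to 0.126 between PL Dex and PL saline, and at -0.105 to 0.213 between the regions. Each batch holds 1 library of each group, and the block fit compares the groups within batches.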

Additional observations from a re-analysis of the deposited data

How the results depend on the processing

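The number of the 10 genes called between PL and IL with saline was 6 with RLE size factors, DESeq2, no filter, the replicate block or only the groups compared, 5 with the GC correction and 6 with both. Over the 13 alternatives with saline, Hsp90b1 was called in 8 and Xbp1 in 2, so equal counts need not hold the same genes. With Dex the number called was 1, except 2 without the low-count filter (Pdia3 added), 4 with the GC correction and replicate block, and 1 to 3 without single libraries. The paired fit (replicate block alone) changed no call: 6, 1, 0, 0 and 0 genes for the region with saline, the region with Dex, Dex in PL, Dex in IL and their difference. For Dex in PL the count was 0 to 4 without single libraries; over all genes DESeq2 called 57 higher and 83 lower there, where edgeR called 0 and 4. Leaving out a library leaves 2 in its group, with the spread pooled over all groups; the difference of the Dex effects uses all groups, so it has no fit of only the groups compared. Sign changes below concern log2 values near 0 that were never called; the cause was not tested.

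For Dex in PL, Atf6 stood at 0.087 with the GC correction, 0.088 with the replicate block added and 0.043 with the correction without PL Dex 3, where Pdia6 stood at -0.026. Without single libraries Atf6 ran from -0.097 to 0.025, Pdia4 from -0.17 to 0.019 and Pdia6 from -0.039 to 0.059. For Dex in IL without the filter, Atf6 stood at -0.0063, Hspa5 at -0.011, Hsp90b1 at -0.0085, Pdia3 at -0.012 and Canx at -0.0096. With the GC correction Hspa5 stood at -0.0034, Hsp90b1 at -3.2e-05 and Pdia3 at -0.0038, and with the replicate block added Atf6 at -8.2e-05, Hspa5 at -0.0048, Hsp90b1 at -2.4e-05, Pdia3 at -0.0045 and Canx at -0.00083. Pdia3 stood at -1.6e-05 with only the groups compared. Without single libraries Atf6 ran from -0.027 to 0.054, Hspa5 from -0.023 to 0.023, Hsp90b1 from -0.075 to 0.063, Pdia3 from -0.039 to 0.031, Pdia6 from -0.087 to 0.046, Dnajb9 from -0.15 to 0.10 and Canx from -0.024 to 0.029.

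For the difference of the Dex effects, Atf6 stood at 0.086 with the GC correction, 0.089 with the replicate block added and 0.043 with the correction without PL Dex 3, where Calr stood at -0.023. Without single libraries Atf6 ran from -0.10 to 0.017, Pdia6 from -0.040 to 0.092 and Xbp1 from -0.12 to 0.0065. Between PL and IL with saline, Calr stood at 0.0044 with RLE size factors, 0.056 with the GC correction with and without the replicate block, 0.0042 with only the groups compared and 0.010 with DESeq2, and ran from -0.068 to 0.046 without single libraries. The shallowest library, IL Dex 1, had 5419187 reads.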
